A study of Homo sapiens with 8 samples.

Results

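NF-kB is a family of dimeric transcription factors that is held in the cytoplasm by inhibitors of the IkB family and released when those inhibitors are degraded. Ligands such as tumour necrosis factor trigger the canonical branch through RELA and NFKB1, while the kinase MAP3K14 drives the non-canonical branch through RELB and NFKB2. The pathway switches on several of its own inhibitors, so transcripts of feedback targets are commonly read as its output, and it is often active in pancreatic ductal adenocarcinoma. The results here cover 10 protein-coding genes, taken by gene name from 58735 annotated genes. RELA, RELB, NFKB1 and NFKB2 encode subunits, NFKBIA and NFKBIE encode IkB inhibitors, TNFAIP3 encodes an inhibitory ubiquitin-editing enzyme, and TRAF1, BIRC3 and ICAM1 are targets with other functions.

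The cells were PANC-1, an established line grown from a human pancreatic ductal adenocarcinoma, taken 48 h after siRNA transfection. The control group (siSCR) held 4 libraries of cells labelled WT that received a scrambled siRNA. The knockdown group (siBARD1) held 4 libraries of cells labelled BARD1 knockdown that received siRNA against BARD1. Both groups use the replicate numbers 1, 3, 4 and 5, and all values below follow that order. BARD1 is the partner of BRCA1 in DNA repair, and the design asked what its silencing does to the transcriptome. No label says that the replicates were separate cultures, so each p-value reflects just the spread among these 8 libraries, which may be technical. In bulk RNA, fewer cells of a type and less RNA per cell cannot be told apart.

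Total counts were 17816547 to 28590710 per library. BARD1 itself went from 19.5 ± 2.33 to 2.997 ± 0.397 CPM, a log2 fold change of -2.69 (SE 0.12, adjusted p = 7.41e-11 in edgeR). CPM is a count scaled to library size after TMM correction, and ± gives the SD over the 4 libraries of a group throughout. The siSCR replicate 1 library stood apart on the second principal component of log2 CPM, at 33.2, against -13.2 to 5.67 in the other 7 libraries. KRT8, KRT18 and KRT19, keratins of simple and ductal epithelium, and the mesenchymal filament VIM were abundant in both groups and fell in siBARD1, KRT19 the least abundant of them, from 1066 to 638 CPM. EPCAM, the epithelial adhesion molecule and the fifth gene of that marker list, was not called, with 17.1 ± 2.20 CPM in siSCR against 18.9 ± 2.02 in siBARD1 (log2 fold change 0.14, SE 0.10, adjusted p = 0.281 in edgeR). Of 7 leukocyte markers 6 stayed below 1 CPM in every library, as did all 4 endothelial markers and 3 of 5 fibroblast markers. Summed over its list, the leukocyte level ranged from 0.884 to 1.42 CPM in siSCR and 1.24 to 1.80 CPM in siBARD1, and the endothelial level from 0.344 to 0.754 and 0.0688 to 0.314 CPM. The fibroblast sum ranged from 83.1 to 126 CPM in siSCR and 78.4 to 87.2 CPM in siBARD1, with DCN and LUM at 0 throughout. COL1A1 supplied nearly all of this sum, and its mean of 101 ± 19.0 CPM among the controls dropped to 80.7 ± 3.83 CPM after knockdown. It was called lower (log2 fold change -0.33, SE 0.12, adjusted p = 0.0488 in edgeR), although the groups overlapped. PTPRC, the pan-leukocyte marker, averaged 0.035 CPM in siSCR and 0.022 CPM in siBARD1.

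All 10 genes passed the filter on low counts, and 5 of them changed in edgeR's quasi-likelihood test at a Benjamini-Hochberg adjusted p under 0.05. That is close to the background, since 38.9% of all 15287 genes tested changed. BIRC3, ICAM1, NFKBIA and NFKB2 fell, where 20% of all genes were lower, and TRAF1 rose, where 18.9% were higher. The median log2 fold change of the 10 genes was -0.17, against 0.00436 over all genes tested. The groups did not overlap for BIRC3, ICAM1, NFKBIA and NFKB1, 4 of 10, against 36.1% of all genes. All 4 lay lower, where 18.4% of all genes did so without overlap, and 17.7% lay higher.

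**Figure D1:**
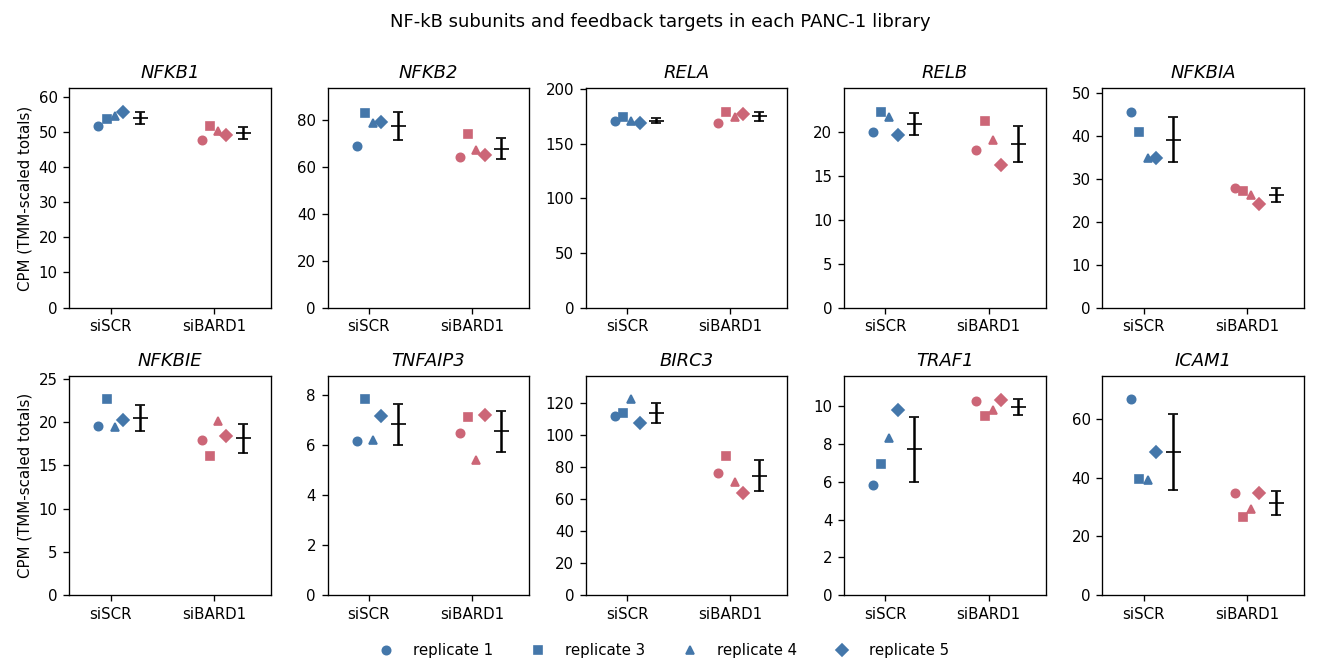
CPM of each of the 10 genes in each library (vertical axes, each from 0), with 4 siSCR libraries in blue and 4 siBARD1 libraries in red, symbols for the replicate number and black bars for the mean and SD. BIRC3 and NFKBIA separate clearly between the groups, RELA does not, and siSCR replicate 1 is the high ICAM1 point at 66.9 CPM.

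**Figure D2:**
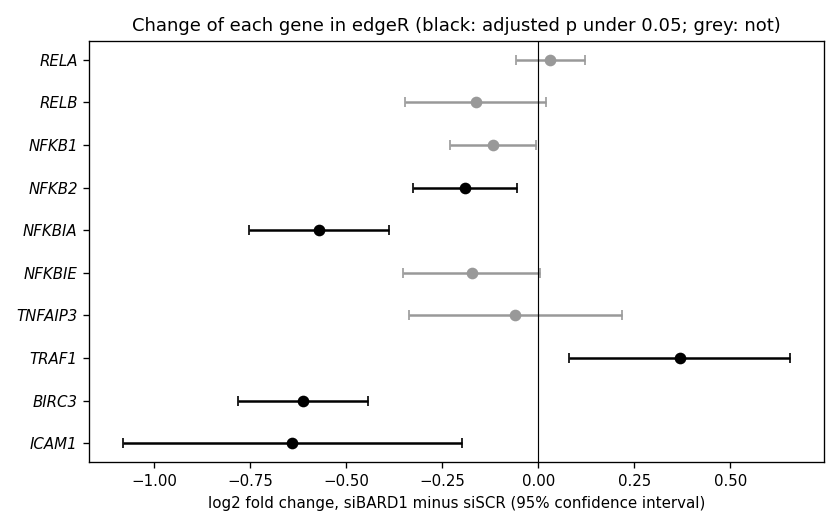
The log2 fold change of each gene with its 95% confidence interval from edgeR, siBARD1 minus siSCR (horizontal axis), black where the adjusted p is under 0.05 and grey where it is not. The 3 largest falls are in ICAM1, BIRC3 and NFKBIA, and the ICAM1 interval, -1.08 to -0.20, is the widest.

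The subunit genes moved little. RELA (ENSG00000173039; chromosome 11, 65653596 to 65663094, minus strand, GRCh38) encodes the main transactivating subunit of the canonical branch. Its levels were 171, 174, 171 and 169 CPM in siSCR, against 169, 179, 174 and 177 CPM in siBARD1. The groups overlapped, and no change was called (log2 fold change 0.03, SE 0.04, adjusted p = 0.589 in edgeR). The 95% confidence interval, -0.06 to 0.12, leaves room only for small differences in either direction.

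NFKB1 (ENSG00000109320; chromosome 4, 102501329 to 102617302, plus strand) encodes the precursor of RELA's usual partner. It stood at 51.7, 53.6, 54.6 and 55.7 CPM in siSCR and 47.7, 51.5, 50.4 and 49.1 CPM in siBARD1. The siBARD1 values were all lower than the lowest control, by a narrow margin. The difference did not pass in edgeR (log2 fold change -0.12, SE 0.05, adjusted p = 0.0919, 95% confidence interval -0.23 to -0.0048).

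NFKB2 (ENSG00000077150; chromosome 10, 102394110 to 102402529, plus strand) encodes the precursor processed in the non-canonical branch and is itself a known NF-kB target. Its levels were 69.0, 83.1, 79.0 and 79.3 CPM in siSCR and 64.4, 74.3, 67.4 and 65.4 CPM in siBARD1. The groups overlapped, because siSCR replicate 1 lay below siBARD1 replicate 3. NFKB2 fell by 12.4% (log2 fold change -0.19, SE 0.06, adjusted p = 0.0255 in edgeR). The call was lost with scaling by total count (adjusted p = 0.0807) or upper quartile (0.0695), and without any 1 library other than siSCR replicate 1 or siBARD1 replicate 3 (0.0599 to 0.0798).

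RELB (ENSG00000104856; chromosome 19, 45001430 to 45038198, plus strand) encodes the partner of processed NFKB2. It stood at 20.01, 22.3, 21.7 and 19.6 CPM in siSCR and 17.9, 21.2, 19.0 and 16.3 CPM in siBARD1. The groups overlapped through siBARD1 replicate 3, and the difference did not pass (log2 fold change -0.16, SE 0.09, adjusted p = 0.149 in edgeR, 95% confidence interval -0.35 to 0.02).

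Among the inhibitors, NFKBIA changed most. NFKBIA (ENSG00000100906; chromosome 14, 35401511 to 35404749, minus strand) encodes IkB-alpha, which masks RELA dimers and is resynthesised within the canonical feedback loop. Its levels were 45.7, 41.1, 34.99 and 34.8 CPM in siSCR and 27.8, 27.2, 26.3 and 24.1 CPM in siBARD1. Every siBARD1 library lay below every siSCR library, with the highest values in siSCR replicates 1 and 3. NFKBIA fell by 32.7% (log2 fold change -0.57, SE 0.09, adjusted p = 6.43e-05 in edgeR), and the call held in all 8 fits that left out a library. Without siSCR replicate 1 the log2 fold change was -0.49 (SE 0.08).

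NFKBIE (ENSG00000146232; chromosome 6, 44258166 to 44265788, minus strand) encodes IkB-epsilon, a slower feedback inhibitor. It stood at 19.6, 22.7, 19.5 and 20.2 CPM in siSCR and 17.9, 16.1, 20.1 and 18.4 CPM in siBARD1. Only siBARD1 replicate 4 reached into the siSCR range. The difference did not pass (log2 fold change -0.17, SE 0.08, adjusted p = 0.115 in edgeR, 95% confidence interval -0.35 to 0.0046).

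TNFAIP3 (ENSG00000118503; chromosome 6, 137867188 to 137883312, plus strand) encodes the ubiquitin-editing enzyme that shuts down signalling from tumour necrosis factor receptors. Its levels were 6.14, 7.83, 6.17 and 7.17 CPM in siSCR and 6.49, 7.10, 5.40 and 7.19 CPM in siBARD1. The groups overlapped almost entirely (log2 fold change -0.06, SE 0.13, adjusted p = 0.757 in edgeR). The 95% confidence interval, -0.34 to 0.22, is wider than that of RELA.

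BIRC3 (ENSG00000023445; chromosome 11, 102317450 to 102339403, plus strand) encodes an inhibitor-of-apoptosis ubiquitin ligase that acts on RIPK1 and, with TRAF2 and TRAF3, on MAP3K14. It stood at 112, 114, 123 and 108 CPM in siSCR and 76.2, 87.3, 71.1 and 64.1 CPM in siBARD1. The groups lay far apart relative to their spread, with siBARD1 replicate 3 the closest to the controls. BIRC3 fell by 34.6% (log2 fold change -0.61, SE 0.08, adjusted p = 2.74e-05 in edgeR), the smallest p of the 10 genes, and the call held in all 8 fits that left out a library.

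TRAF1 (ENSG00000056558; chromosome 9, 120902393 to 120929173, minus strand) encodes an adaptor that binds TRAF2 and the BIRC2 and BIRC3 proteins. Its levels were 5.81, 6.96, 8.33 and 9.82 CPM in siSCR and 10.3, 9.47, 9.80 and 10.3 CPM in siBARD1. The siBARD1 libraries lay close together, while the siSCR libraries spread widely and replicate 5 reached into the siBARD1 range. TRAF1 rose 1.29-fold (log2 fold change 0.37, SE 0.14, adjusted p = 0.0405 in edgeR), against the direction of the 4 genes that fell. The call was lost in limma on log2(FPKM + 1) (adjusted p = 0.0669) and log2(FPKM + 0.1) (0.0701), and without any 1 library other than siSCR replicate 5 (0.0510 to 0.114). Without siSCR replicate 1 the log2 fold change was 0.25, which is 1.5 times smaller (adjusted p = 0.112).

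ICAM1 (ENSG00000090339; chromosome 19, 10270835 to 10286615, plus strand) encodes an adhesion receptor for leukocyte integrins. It stood at 66.9, 39.6, 39.4 and 49.0 CPM in siSCR and 34.7, 26.7, 29.4 and 34.99 CPM in siBARD1. The groups did not overlap, although siSCR replicates 3 and 4 lay close to siBARD1 replicates 1 and 5, and siSCR replicate 1 was far above the rest. ICAM1 fell by 35.8% (log2 fold change -0.64, SE 0.19, adjusted p = 0.0303 in edgeR). Without siSCR replicate 1 the fall was smaller but more precise (log2 fold change -0.45, SE 0.10, adjusted p = 0.00309). The call was lost without siSCR replicate 5 (adjusted p = 0.0693), siBARD1 replicate 1 (0.0549), siBARD1 replicate 3 (0.0699) or siBARD1 replicate 4 (0.0772), and with no filter on low counts (0.102). Antisense genes on the opposite strand share 23.6% of the exonic bases of ICAM1, and those genes had at most 3 counts in any library. Because strandedness is not stated, these low counts cannot show whether the overlap affected the ICAM1 count.

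Levels of different genes were compared per length, on the authors' FPKM scale (counts divided by gene length and library size). That length counts all annotated exons of a gene, 7518 bases for BIRC3 and 2373 for NFKBIA. A single transcript can be shorter, such as coding transcripts of 4238 bases for BIRC3 and 1558 for NFKBIA. The order of genes, and the shares and ratios between genes, depend on the lengths used. The comparison of 1 gene between the groups does not. RELA was the most abundant of the 10 transcripts in both groups, at 31.2 ± 0.440 FPKM in siSCR and 31.8 ± 0.775 FPKM in siBARD1 (SD, n = 4 each), and no other of the 10 overlapped it. In siSCR, NFKB2 (17.2 FPKM), NFKBIA (16.4), BIRC3 (15.1) and ICAM1 (13.1) followed, with each overlapping the next. NFKB1 (8.57 FPKM) and NFKBIE (7.90) overlapped one another, RELB stood below them at 6.85 FPKM, and TNFAIP3 (1.34) and TRAF1 (1.19) were lowest and overlapped. In siBARD1 the order of means was the same down to RELB, but the gaps differed. NFKB2, at 15.02 FPKM, no longer overlapped NFKBIA (11.02), and from NFKBIA through BIRC3 (9.85), ICAM1 (8.42), NFKB1 (7.88) and NFKBIE (6.97) to RELB (6.08) each gene overlapped the next. TRAF1, at 1.53 ± 0.0608 FPKM, lay above TNFAIP3, at 1.29 ± 0.159 FPKM, without overlap.

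**Figure D3:**
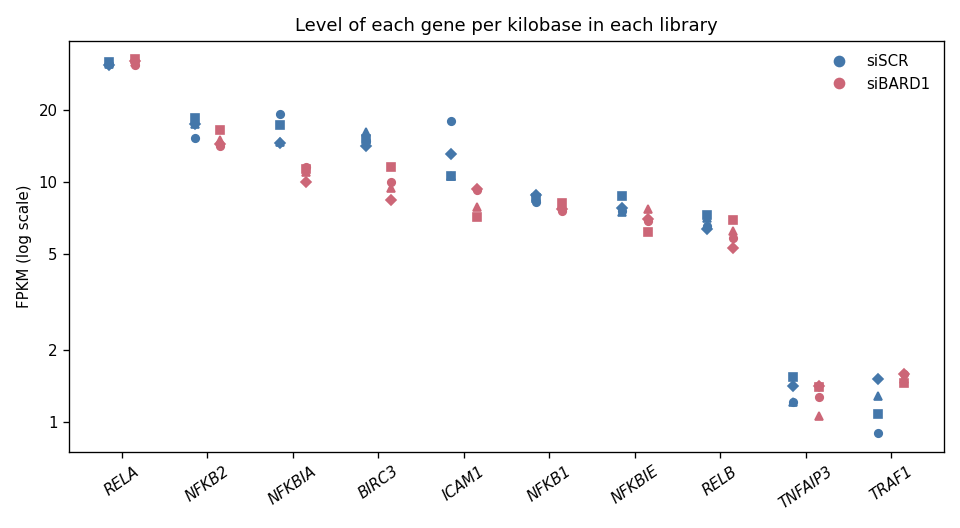
FPKM of the 10 genes (vertical axis, log scale) in each siSCR library (blue) and siBARD1 library (red), ordered by the siSCR mean, with symbols for replicates as in the plot of CPM. RELA stays near 31 FPKM in every library, and TNFAIP3 and TRAF1 are the only genes below 2 FPKM.

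The balance between inhibitor and subunit transcripts was described by ratios within each library. The FPKM ratio of NFKBIA to RELA was 0.615, 0.543, 0.472 and 0.473 in siSCR, against 0.378, 0.349, 0.348 and 0.312 in siBARD1. The sum of the 3 classical IkB transcripts (NFKBIA, NFKBIB and NFKBIE) was 1.63 ± 0.101 times that of the 5 Rel family transcripts in siSCR and 1.38 ± 0.0447 times in siBARD1 (SD, n = 4 each). Most of the IkB sum was NFKBIB, which is not among the 10 genes, at 80.9 ± 8.62 FPKM in siSCR and 67.3 ± 4.91 FPKM in siBARD1. Neither ratio overlapped between the groups. RELA made up 48.3% ± 1.23 of the Rel family FPKM in siSCR and 51.4% ± 1.20 in siBARD1, and NFKB2 made up 26.6% ± 1.36 and 24.3% ± 0.693. REL, the remaining subunit gene, was the smallest share, at 1.31% ± 0.164 and 1.73% ± 0.175. Unlike the ratios, the RELA, NFKB2 and REL shares each overlapped between the groups, through siSCR replicate 1 alone. The ratio of BIRC3 to its chromosomal neighbour BIRC2, a related inhibitor-of-apoptosis gene, went from 0.454 ± 0.0138 to 0.257 ± 0.0235. BIRC2 rose while BIRC3 fell (BIRC2 log2 fold change 0.21, SE 0.05, adjusted p = 0.00190 in edgeR). These ratios are descriptions and carry no test.

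**Figure D4:**
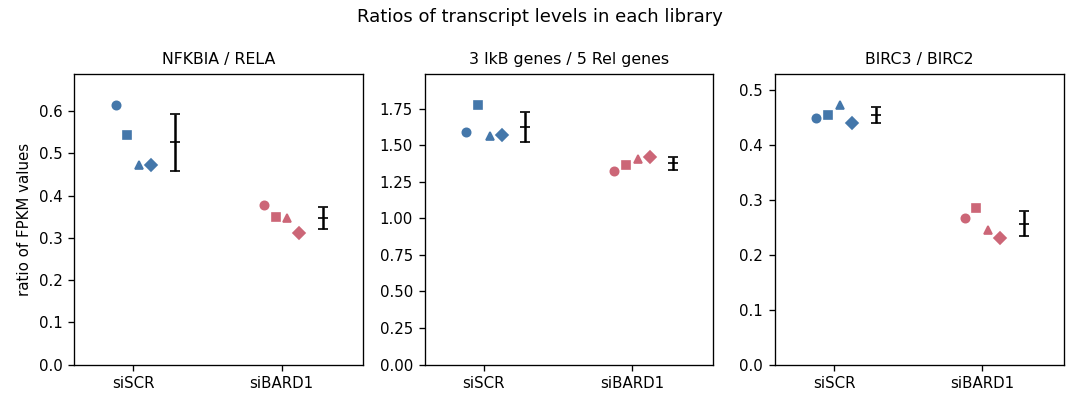
Ratios of FPKM values per library (vertical axes, each from 0) for NFKBIA over RELA, the 3 IkB genes over the 5 Rel family genes, and BIRC3 over BIRC2, with siSCR in blue, siBARD1 in red and black bars for the mean and SD. In each panel the siBARD1 points lie under the siSCR points with no overlap.

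The region around the start site is shown for the 3 genes with the largest falls, for TRAF1, which rose, and for TNFAIP3, for which no change was called. RefSeq windows (GRCh38.p14, 250 bases before to 50 after an annotated start) matched 8 of the 10 genes, all but RELB and NFKBIE, with 14 windows among them. They were searched on both strands for the kB consensus, the 10-base NF-kB recognition motif, written GGGRNWYYCC. Here R is A or G, Y is C or T, W is A or T, and N is any base. The motif was found in 6 of these 14 windows, from NFKB1, NFKB2, NFKBIA, TNFAIP3 and BIRC3, and in 5.91% of 35116 windows of all genes. The 10 genes were chosen as NF-kB subunits and targets, so this difference is no independent evidence. Each window shown is printed on the gene's strand, with matches to the motif in capitals, and TRAF1 by the first of its 3 windows.
NFKBIA, chr14:35404700-35404999, minus strand: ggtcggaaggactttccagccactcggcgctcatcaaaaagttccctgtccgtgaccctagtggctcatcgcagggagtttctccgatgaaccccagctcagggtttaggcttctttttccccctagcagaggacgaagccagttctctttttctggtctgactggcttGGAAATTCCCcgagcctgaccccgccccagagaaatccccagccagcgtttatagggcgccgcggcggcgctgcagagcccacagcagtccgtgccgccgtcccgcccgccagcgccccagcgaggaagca
BIRC3, chr11:102317234-102317533, plus strand: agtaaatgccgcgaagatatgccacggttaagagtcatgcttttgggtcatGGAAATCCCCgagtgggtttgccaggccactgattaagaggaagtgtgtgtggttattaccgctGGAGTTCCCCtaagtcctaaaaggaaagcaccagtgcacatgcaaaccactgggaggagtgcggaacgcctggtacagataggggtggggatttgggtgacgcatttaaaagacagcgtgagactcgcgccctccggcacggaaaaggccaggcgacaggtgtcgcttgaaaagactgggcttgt
TRAF1, chr9:120929122-120929421, minus strand: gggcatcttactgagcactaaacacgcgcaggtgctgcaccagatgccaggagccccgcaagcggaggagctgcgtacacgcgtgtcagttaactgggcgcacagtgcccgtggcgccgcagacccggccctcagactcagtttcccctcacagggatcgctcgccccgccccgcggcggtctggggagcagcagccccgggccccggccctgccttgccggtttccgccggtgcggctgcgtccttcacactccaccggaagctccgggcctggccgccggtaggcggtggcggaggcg
TNFAIP3, chr6:137867009-137867308, plus strand: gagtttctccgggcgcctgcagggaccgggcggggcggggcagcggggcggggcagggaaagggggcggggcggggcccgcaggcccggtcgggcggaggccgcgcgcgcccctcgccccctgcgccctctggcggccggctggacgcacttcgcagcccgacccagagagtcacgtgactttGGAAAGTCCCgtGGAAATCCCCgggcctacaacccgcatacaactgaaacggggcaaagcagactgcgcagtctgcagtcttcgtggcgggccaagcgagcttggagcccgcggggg
ICAM1, chr19:10270870-10271169, plus strand: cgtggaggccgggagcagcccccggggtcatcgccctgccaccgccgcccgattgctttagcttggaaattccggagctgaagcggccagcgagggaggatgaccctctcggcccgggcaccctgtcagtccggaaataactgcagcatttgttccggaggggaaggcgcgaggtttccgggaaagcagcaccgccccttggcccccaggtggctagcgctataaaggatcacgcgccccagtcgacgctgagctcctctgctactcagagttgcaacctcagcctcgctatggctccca
The NFKBIA match lay at bases -81 to -72 from the start, those of TNFAIP3 at -67 to -58 and -55 to -46, and those of BIRC3 at -199 to -190 and -135 to -126. NFKB1 had 1 match, at -49 to -40. The motif was present beside genes that fell and beside TNFAIP3, which was not called. The ICAM1, RELA and TRAF1 windows held no match, which says only that these letters are not there. The printed ICAM1 window does hold tggaaattcc, which differs from the motif at its first base only. Looser forms of the motif were not searched. A match is not a measured binding site.

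Transcripts were also searched for CTACCAG, a 7-base sequence taken up because an earlier look at these data had found it often in genes that fell. In the GENCODE transcript with the longest 3′ UTR of each gene, it was present in NFKBIA, BIRC3, ICAM1 and NFKB2, the 4 genes that fell, and in none of the other 6. Every copy lay in the coding sequence and none in a 3′ UTR. Each is printed with its flanks, the sequence in capitals, as the transcript's letters 5′ to 3′.
NFKBIA, first copy: aacagagttacCTACCAGggctattctcc
NFKBIA, second copy: ggctattctccCTACCAGctcacctgggg
BIRC3: atgtttcagatCTACCAGtggaagaacaa
ICAM1: acctcggccccCTACCAGctccagacctt
NFKB2: gcctacagcccCTACCAGtccggcgcggg
Among 12722 tested protein-coding genes searched in the same way, 24.1% carried the sequence. Over all protein-coding transcripts of each gene, TRAF1, which rose, also held it in 1 of 3. That wider search found no copy in RELA, RELB, NFKB1, NFKBIE or TNFAIP3. Over all tested genes in the wider search, those with a copy in some 3′ UTR were lower in 38.7% of 1133 cases and higher in 17.7%. Genes with copies only outside every 3′ UTR were lower in 30.8% of 2302 and higher in 18.8%. Genes with no copy were lower in 18.4% of 9287 and higher in 22.1%. Because the sequence was taken up from these same libraries, its presence in the genes that fell is no independent evidence, and its part in the changes was not tested.

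Other genes of the pathway were taken from 8 lists with 107 genes, of which 82 passed the filter. Of these, 26 fell, 13 rose and 43 were not called, so 47.6% changed, against 38.9% of all genes, with a median log2 fold change of -0.03. CTACCAG was present in some transcript of 9 of the 26 that fell, 2 of the 13 that rose and 6 of the 43 others. That is 20.7% of the 82, below the 27% (3435) of the 12722 tested protein-coding genes searched in the same way. The counts by direction depended on scaling: by total count, 22 fell and 19 rose, and over all genes 59.3% of calls were then higher, against 48.6% with TMM.

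The remaining Rel and IkB family genes divided evenly, with 2 of 5 higher, 2 lower and NFKBID not called. BCL3, an atypical IkB protein that works in the nucleus with NFKB1 or NFKB2 dimers, averaged 48.8 ± 3.82 CPM in siSCR, and it fell to 26.9 ± 4.03 CPM in siBARD1 (log2 fold change -0.86, SE 0.09, adjusted p = 3.76e-06 in edgeR). NFKBIZ, an atypical nuclear IkB protein that acts as a coactivator, rose from 15.6 ± 1.39 to 26.1 ± 2.73 CPM (0.74, SE 0.09, adjusted p = 6.47e-06). The classical inhibitor NFKBIB was lower by log2 fold change (-0.26, SE 0.07), and the subunit gene REL was higher (0.33, SE 0.10). The REL call was lost in limma on log2(FPKM + 1) (adjusted p = 0.0564) and log2(FPKM + 0.1) (0.0662).

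Most ligand genes were barely detected. Of 10, 8 stayed below 1 CPM in every library, 5 had no count in any library, and TNF averaged 0.082 CPM in siSCR and 0.064 CPM in siBARD1. Of the 2 tested, 0 were called in edgeR, 0 at an unadjusted p under 0.05, and 0 in DESeq2 and limma. TNFSF12, which encodes TWEAK, was the exception in level, with 12.8 ± 1.40 CPM in siSCR against 13.2 ± 2.47 in siBARD1 (log2 fold change 0.04, SE 0.12, adjusted p = 0.847 in edgeR). LTB, which encodes lymphotoxin beta, had the smaller p (log2 fold change -0.15, SE 0.43, adjusted p = 0.814 in edgeR). Among 9 receptor genes tested, 3 rose and 2 fell (55.6% called, against 38.9% of all genes). IL1R1, the signalling receptor for interleukin-1, stood at 14.5 ± 1.70 CPM in siSCR and rose 1.91-fold to 27.7 ± 3.50 CPM (log2 fold change 0.93, SE 0.10, adjusted p = 2.26e-06 in edgeR). Its co-receptor IL1RAP rose 1.502-fold (0.59, SE 0.13). The log2 fold change was -0.37 (SE 0.11) for TNFRSF12A, the receptor for TWEAK, and -0.22 (SE 0.06) for TNFRSF11A, the receptor RANK. TNFRSF12A lost its call without siSCR replicate 3 (adjusted p = 0.0597) or siSCR replicate 4 (0.0520).

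All 28 adaptor and kinase genes were tested. Of these, 8 fell and 3 rose (39.3% called, against 38.9% of all genes), but 5 fell and 6 rose with scaling by total count. MAP3K14, the kinase of the non-canonical branch, fell from 60.1 ± 10.02 to 38.6 ± 6.17 CPM (log2 fold change -0.63, SE 0.15, adjusted p = 0.00755 in edgeR). Its siSCR replicate 1 value, 45.2 CPM, lay below siBARD1 replicate 3 at 47.6 CPM, and without that control library the log2 fold change was -0.75 (SE 0.09). IRAK2, a kinase of interleukin-1 signalling, had -0.49 (SE 0.07). TRAF5, an adaptor of the receptor family, rose 1.38-fold (0.47, SE 0.09), and CHUK, the IkB kinase subunit of the non-canonical branch, rose 1.23-fold (0.30, SE 0.05). Leaving out siSCR replicate 4, or siBARD1 replicate 5, reduced the genes that fell to 5.

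Of 14 tested genes for other brakes on the pathway, 5 rose and 2 fell (50% called, against 38.9% of all genes). The log2 fold change of N4BP1, which restrains NF-kB signalling, was 0.33 (SE 0.06), and that of RNF11, a partner of TNFAIP3, was 0.26 (SE 0.06). OTULIN, which removes linear ubiquitin chains, had -0.37 (SE 0.06), and ITCH, a ubiquitin ligase that works with TNFAIP3, had -0.18 (SE 0.05). The number that rose was 3 without siSCR replicate 4 or siBARD1 replicate 4. Among 5 genes of the ubiquitin ligase that marks IkB for degradation, FBXW11 had -0.14 (SE 0.04, adjusted p = 0.0189 in edgeR), a call lost with total count scaling (adjusted p = 0.0944), upper-quartile scaling (0.0716), no low-count filter (0.0762), or without siSCR replicate 4 (0.0610), siBARD1 replicate 1 (0.0548) or siBARD1 replicate 5 (0.0517). With total count or upper-quartile scaling 1 gene of this set was higher and 0 lower.

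Of 14 tested targets with roles other than as cytokines, 9 fell and 0 rose in edgeR (0 rose at an unadjusted p under 0.05, in DESeq2 and in limma), with a median log2 fold change of -0.37. Of these 14 genes 64.3% changed, against 38.9% of all genes. Over all 15287 genes tested, 3057 fell and 2889 rose. Like the other lists, this list was chosen with earlier results of these data known, so its counts are no independent evidence. PLAU, the urokinase-type plasminogen activator, stood at 238 ± 24.1 CPM in siSCR and was 2.70-fold lower in siBARD1, at 88.3 ± 9.23 CPM (log2 fold change -1.43, SE 0.08, adjusted p = 3.5e-08 in edgeR). BCL2A1, an anti-apoptotic BCL2 family member, went from 7.27 ± 0.721 CPM to 3.24 ± 0.598 CPM, a log2 fold change of -1.15 (SE 0.15). SOD2 and CFLAR, named after their values were seen, were not called (log2 fold change -0.01, SE 0.05, and 0.02, SE 0.07). Of 12 cytokine genes, 7 stayed below 1 CPM in every library, among them IL6 and CXCL8. Of the 5 tested, 2 were called (40%, close to the 38.9% of all genes), both lower. These were CCL2, at -1.57 (SE 0.15), and CSF1, at -1.39 (SE 0.07). Both fell more than any of the 10 genes under study in their log2 fold change.

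**Figure D5:**
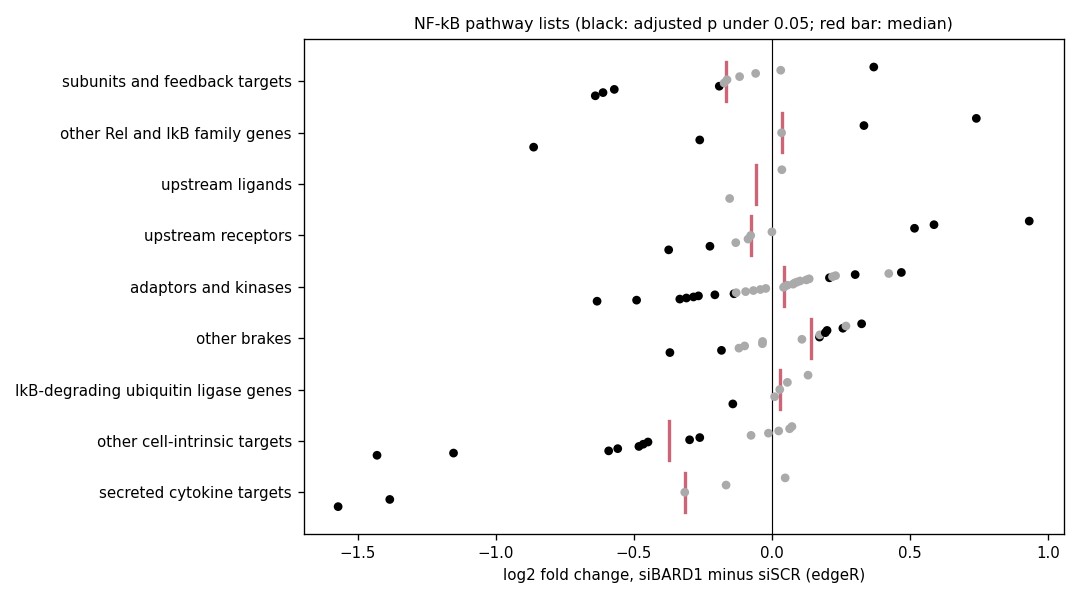
The log2 fold change in edgeR (horizontal axis, siBARD1 minus siSCR) of every tested gene in the 10-gene set and the 8 other pathway lists (rows), black where the adjusted p is under 0.05, with a red bar at the median of each list. The black points of both target lists all lie below 0, while those of the receptors, adaptors and brakes lie on both sides. The share called was 64.3% for the cell-intrinsic targets and 40% for the secreted cytokine targets, against 38.9% of all genes tested.

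The genes whose pattern was most like BIRC3, NFKBIA and NFKB2 were sought among 10415 other protein-coding genes at 5 CPM or more. Likeness was the root mean square difference over the 8 libraries in log2 CPM, centred on the siSCR mean. Nearest to BIRC3 were EREG (0.0699), a ligand of the epidermal growth factor receptor, SFR1 (0.0744) and DCTN5 (0.0771). Nearest to NFKBIA were CRABP2 (0.0785), a retinoic acid-binding protein, HYAL2 (0.0842) and CHMP2B (0.0857). Nearest to NFKB2 were MBD1 (0.0312), ADRM1 (0.0327) and DDX56 (0.0361). All of these genes were lower in siBARD1, which follows from the search, since they were matched over all 8 libraries to genes that fell.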

How the data were processed

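Per the labels' protocols, poly-A RNA was enriched with poly-T beads before library preparation; strandedness is not stated. The submitters' processing notes list fastp, HISAT2 (2.0.5) and featureCounts. The authors deposited raw counts for every gene, and FPKM alongside. The notes name GRCh37 and hg19, but all 58735 gene coordinates are those of GENCODE release 29 (GRCh38), used here; the build of the alignment is not settled.

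Groups came from the sample labels. No pair of libraries within a group was alike enough to be a duplicate. Counts were tested with edgeR 4.0.16 in R 4.3.3 (filterByExpr, TMM, robust quasi-likelihood fit, no covariates, Benjamini-Hochberg adjusted p under 0.05 over 15287 genes). This step was run on simulated data in which far fewer genes changed than here. That simulation therefore does not test the scaling when so many genes change. The SE is the log2 fold change over the square root of F. For SOD2, the entry with more counts was used. Alternatives covered scaling (RLE, upper quartile, total), low-count filters, protein-coding genes alone, DESeq2 1.42.0, limma 3.58.1 (voom, log2 FPKM plus 1 or 0.1), the replicate number as a block, and each library left out. The members and lists were chosen with earlier results of these data known. Named genes were the members, BARD1 and the 3 genes most like each of 3 members. Each list also gave up to 2 called genes per direction (largest change, or else the smallest p). BIRC2, TNF, PTPRC, the keratins, VIM, NFKBID, EPCAM, TNFSF12, IL6, CXCL8, DCN, LUM and COL1A1 were named after their values were seen.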

Additional observations from a re-analysis of the deposited data

Results flagged for a closer look

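Each of the 10 members, BARD1 and the named pathway genes was checked in both groups, 66 sets of 4 values, for a library set apart from the other 3 (a gap of over 0.829 of the whole range). About 1 in 20 such sets is picked out by chance. There were 2 here, and none of them in the 10 members. MAP3K14 stood at 45.19 CPM in siSCR replicate 1, against 64.3 to 66.5 CPM in the other siSCR libraries. CHUK stood at 114.7 CPM in siBARD1 replicate 4, against 106.7 to 107.9 CPM in the other siBARD1 libraries.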

How the results depend on the processing

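BIRC3 and NFKBIA kept their direction and their call in all 19 alternatives. Their log2 fold changes ranged from -0.69 to -0.55 and from -0.62 to -0.49. RELA, RELB, NFKB1 and NFKBIE were called in none of the 19. The number of members called was 4 with total-count and upper-quartile scaling, no low-count filter and both FPKM fits, and ranged from 2 to 4 when a library was left out. Those lower numbered 2 to 4 and those higher 0 to 1 without single libraries, and 0 were higher in both FPKM fits. TNFAIP3 ranged from -0.11 to 0.028 without single libraries and turned positive without siSCR replicate 3 (0.0051) or siBARD1 replicate 4 (0.028), and LTB without siSCR replicate 5 (0.23) or siBARD1 replicate 3 (0.054), none of them called. With the replicate number as a block, 5 members were called, 6604 genes changed in all, and the pathway lists held 43 calls. Same-numbered libraries correlated at 0.132, 0.123, 0.0319 and -0.0317 in their deviations from the group mean. Libraries with different numbers correlated at -0.269 to 0.138. These values are too small and too mixed to settle whether the numbers pair the libraries. Not every library correlated best with its own number. The BARD1 knockdown gave a log2 fold change of -1.49 in limma on log2(FPKM + 1). That scale adds 1 to BARD1 means of 3.20 FPKM in siSCR and 0.490 FPKM in siBARD1, which makes the fold change smaller. The cause of the changes in siBARD1 was not tested. TRAF1 held 120 to 285 counts per library, and its SD was 1.73 CPM in siSCR and 0.414 CPM in siBARD1.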
